A study of Mus musculus with 23 samples.

Results

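On mouse chromosome 3, 10 annotated genes were followed across carriers and non-carriers of a tau transgene: Metap1, Eif4e, Tspan5, Rap1gds1, Stpg2, the long non-coding RNA 4930590L14Rik, Pdha2, Unc5c, Bmpr1b and Pdlim5, in the order of their positions. They were chosen because 4930590L14Rik had been seen in these same libraries to be read with the transgene, and the others flank it within a window of 5 Mb (GRCm38). They are 10 of the 54232 gene identifiers in the files, and 10 of the 75 annotated genes that start in that window. The carrier contrast therefore chose the members, and it is described below without a test.

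Poly(A)-selected RNA from the hippocampus of C57BL/6 mice was sequenced in 23 libraries. At 9 months of age there were 4 wild-type libraries (WT), 4 from PS19 mice with both copies of Lsd1 intact, 4 from PS19 mice lacking one copy of Lsd1 (PS19_Lsd1het) and 2 from mice lacking one copy of Lsd1 that do not carry the transgene (Lsd1het). At 11 months, all 3 groups had been injected in the hippocampus with an adeno-associated virus that is active in neurons only: WT_HA, 3 libraries, is wild type given a control virus for HA; PS19_HA, 3 libraries, is PS19 given that same virus; and PS19_LSD1, 3 libraries, is PS19 given a virus for LSD1. The 14 libraries of PS19, PS19_Lsd1het, PS19_HA and PS19_LSD1 are called carriers and the other 9 non-carriers. PS19 mice carry a human tau cDNA with the P301S mutation behind the mouse Prnp promoter, so the transgene follows that promoter and not the one of the mouse tau gene. The labels do not say that each library is a separate animal, so the p-values measure the spread between these libraries, which may be partly technical.

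A transgene made by injecting DNA into a fertilised egg inserts at one or a few places in the genome. DNA around the insertion is inherited with it, and genes near it can be read, silenced or disrupted in carriers. The members have unrelated roles. Metap1 removes the first methionine from new proteins, Eif4e binds the cap of mRNA to start translation, and Tspan5 is a tetraspanin membrane protein that guides the protease ADAM10. Rap1gds1 is an exchange factor and chaperone of small GTPases. Unc5c is a netrin receptor of growing axons, Bmpr1b a type I receptor of bone morphogenetic proteins, and Pdlim5 a PDZ-LIM scaffold that joins kinases to the cytoskeleton. Pdha2 is the testis form of a pyruvate dehydrogenase subunit, and Stpg2 codes for a protein of sperm tails.

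The sequence before the start of 4930590L14Rik is shown because that RNA carries the finding, and the one before the start of Pdlim5 because it was the other member whose carriers and non-carriers did not overlap in a cohort. RefSeq (GRCm38.p6) gave a promoter of 300 bases, from 250 before to 50 after the start, for 9 of the 10 members. Each is written in the direction of its gene. Capitals mark the TATA box letters TATAAA, the letters CCAAT and the GC box letters GGGCGG, on either strand. The first spans chr3:140951585-140951884 on the plus strand and the second chr3:142395647-142395946 on the minus strand.
4930590L14Rik: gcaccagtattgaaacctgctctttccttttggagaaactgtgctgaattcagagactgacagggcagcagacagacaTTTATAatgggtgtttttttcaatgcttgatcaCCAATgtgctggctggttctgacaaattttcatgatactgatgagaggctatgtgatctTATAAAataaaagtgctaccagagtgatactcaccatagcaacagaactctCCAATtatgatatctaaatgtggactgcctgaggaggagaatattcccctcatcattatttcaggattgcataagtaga
Pdlim5: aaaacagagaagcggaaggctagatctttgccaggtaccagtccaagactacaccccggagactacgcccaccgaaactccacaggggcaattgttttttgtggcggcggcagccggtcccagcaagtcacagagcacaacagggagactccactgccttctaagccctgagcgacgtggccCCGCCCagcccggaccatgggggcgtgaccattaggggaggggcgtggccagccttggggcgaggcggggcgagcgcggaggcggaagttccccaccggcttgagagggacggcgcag

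The 4930590L14Rik promoter held 39.7% G and C and 0 CpG dinucleotides, and its GC content was at the 9.8th percentile of 32851 RefSeq promoters, whose median was 52.7%. It had TATAAA on the gene's strand, starting 80 bases before the start, and again on the other strand at 172 bases, and CCAAT at 139 and 29 bases. TATAAA occurs in 13.6% of those promoters, CCAAT in 37.4% and GGGCGG in 35.7%. The Pdlim5 promoter shown held 64.7% G and C, 22 CpG and 1 GGGCGG on the other strand. A second RefSeq start of Pdlim5 has a promoter of 33.3% G and C with 2 CpG, TATAAA and CCAAT. Of the other members, Stpg2 (67.3% G and C), Unc5c (68.3%), Tspan5 (73.3%) and Metap1 (78.7%) were richer in both bases than the one shown, and Pdha2 was poor in them, at 29.7% with TATAAA. A match is only a description of these letters.

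The total counts ran from 15451494 to 24644977 per library. The share of mitochondrially encoded genes was 2.86% to 6.04% in 20 libraries, and it was 33.9% for WT replicate 3, 16.1% for PS19 replicate 3 and 16.2% for WT_HA replicate 2. Prnp, whose promoter drives the transgene, was at 776 ± 134 CPM (counts scaled to a common library size, SD, n = 4) in WT and 1645 ± 134 (n = 4) in PS19, and its carrier and non-carrier libraries did not overlap in either cohort. Reads of Prnp sequence in the transgene and reads of the mouse gene cannot be told apart in these counts. Kdm1a, which codes for LSD1, was at 55.8 ± 4.83 CPM (n = 4) in WT, 53.7 ± 5.62 (n = 4) in PS19, 43.1 ± 10.05 (n = 4) in PS19_Lsd1het and 35.9 ± 0.748 (n = 2) in Lsd1het. The highest PS19_Lsd1het library, at 56.5 CPM, lay within the PS19 range, so the heterozygous label was not visible in it. All 5 markers of hippocampal neurons were detected in every library, but their sum was 153 CPM in PS19_Lsd1het replicate 2 and 168 in PS19_HA replicate 3, against 328 to 976 in the others. PS19_HA replicate 3 also had the highest sum of 5 neocortex markers, 384 CPM against 104 to 237.

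The RNA 4930590L14Rik was read in every carrier and hardly at all in non-carriers. It lies at chr3:140951876-140953247 on the plus strand and is annotated as a long intergenic RNA with 836 bases of exons. WT had 0, 0, 0 and 0 reads, and Lsd1het had 0 and 1. PS19 had 19, 31, 30 and 24 reads, and PS19_Lsd1het had 17, 11, 17 and 31. At 11 months WT_HA had 0, 2 and 1 reads, PS19_HA had 44, 38 and 39, and PS19_LSD1 had 34, 46 and 37. Every carrier library lay above every non-carrier library, and the lowest carrier held 11 reads where the highest non-carrier held 2. The rule had named this RNA as present only with the transgene, while 3 of 9 non-carriers held 4 reads in all against 418 in the 14 carriers.

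In TMM-normalised CPM the level was 1.40 ± 0.555 (SD, n = 4) in PS19 and 1.04 ± 0.632 (n = 4) in PS19_Lsd1het at 9 months. It was 1.70 ± 0.206 (n = 3) in PS19_HA and 1.76 ± 0.338 (n = 3) in PS19_LSD1 at 11 months. Over both cohorts the pooled read rate in carriers was 65.5 times that in non-carriers. Within the cohorts the ratio was 136 (95% exact counting interval 24.2 to 5413) at 9 months and 37.9 (12.8 to 185) at 11 months. WT held no read, so PS19 was at least 35.0-fold higher, against a floor of 3 counts over the WT group. These intervals and floors cover counting error only and show how few reads lie behind the ratios; they are no test, since the contrast chose this RNA. Per length, the carriers' mean of 1.72 RPKM was below the 7 coding members that passed the filter on low counts, and above Stpg2 and Pdha2.

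**Figure D1:**
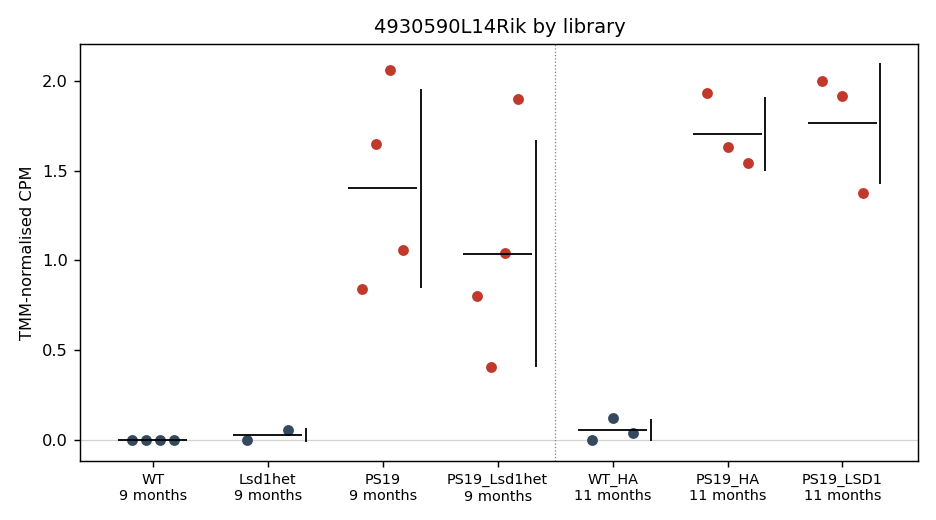
4930590L14Rik in each library, in TMM-normalised CPM on a linear axis. Dots are libraries (red carriers, dark blue non-carriers), horizontal lines are group means, vertical bars are 1 SD and the dotted line parts the 9-month from the 11-month cohort. All non-carriers sit at or near 0 and the carriers lie between 0.406 and 2.06.

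The carrier reads did not stop at 4930590L14Rik. Of the 12 genes annotated between Stpg2 and Pdha2, 9 had reads, and 5 had at least 10 carrier reads: Gm31211, Gm43049, Gm6214, Gm32754 and 4930590L14Rik. They span 326.1 kb, from 140627180 to 140953247, with 4 on the minus strand and 1 on the plus strand. Gm32754 and Gm43049 are annotated as long intergenic RNAs and Gm6214 and Gm31211 as processed pseudogenes, whose counts are uncertain where reads also fit a parent gene. This grouping, with its minimum of 10 reads, was made after the values were seen.

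Gm32754, 46.9 kb from 4930590L14Rik, had 103 carrier reads in 14 of 14 carriers and 1 non-carrier read. Gm6214 had 55 reads in 14 of 14 carriers and 0 in non-carriers. Gm43049 had 20 reads in 9 carriers and Gm31211 20 reads in 10 carriers, both with 0 in non-carriers. Thus the 2 nearer genes were read in all carriers and the 2 farther ones in 9 or 10 of them. Gm43276, between Gm6214 and Gm32754, had 1 carrier read and is not among the 5.

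Summed over the 5 genes, carriers held 19 to 65 reads per library (median 43.5) and non-carriers 0 to 2, or 616 reads against 5. PS19 libraries held 25, 39, 42 and 36 reads, and PS19_Lsd1het 25, 19, 31 and 46. PS19_HA held 65, 57 and 58, and PS19_LSD1 45, 65 and 63. No carrier came near a non-carrier in these sums. Without 4930590L14Rik the other 4 genes held 198 reads in carriers and 1 in non-carriers, and the minimum of carrier reads that admitted them fixes part of that contrast.

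**Figure D2:**
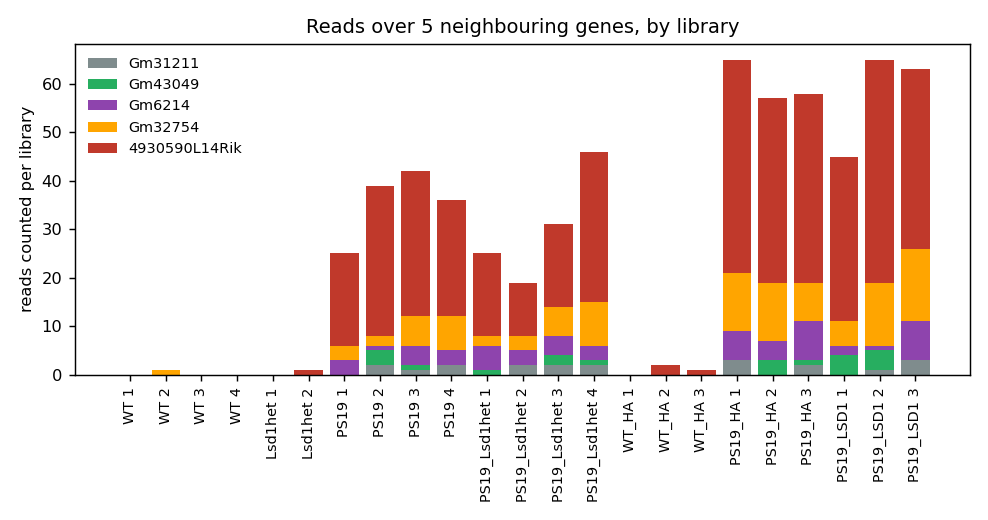
Reads per library over the 5 genes with at least 10 carrier reads in the stretch, stacked by gene (bar height is a raw read count, axis from 0). Non-carriers hold 0 to 2 reads in all and carriers 19 to 65, with 4930590L14Rik the larger share in each carrier.

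Toward Stpg2 the stretch ended in a gap of 916.9 kb. The 6 annotated genes there held 4 carrier and 2 non-carrier reads. On the other side the next member, Pdha2, lay 256.8 kb away and Unc5c 512.0 kb away. Pdha2 had 3 reads in carriers and 0 in non-carriers, and Stpg2 had 16 against 10, so neither passed the filter on low counts. Both are genes of the testis and sperm, and their reads were too few at this depth to compare groups. The other 8 members passed that filter.

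Across all 54232 identifiers, 2 genes had at least 1 read in every carrier and 0 in every non-carrier: Gm6214 and the pseudogene Lamr1-ps1 on chromosome 2 (chr2:131904086-131904959, 824 reads, mean 2.84 CPM in carriers). The reverse pattern, reads in every non-carrier and in no carrier, was met by 0 genes. 4930590L14Rik missed the pattern through its 4 non-carrier reads. A looser pattern, chosen after the values were seen, asked for at least 10 carrier reads and a non-carrier rate of at most 5% of the carrier rate. It took 104 genes, 6 of them in the window. Of these, 13 had reads in every carrier, and 4 of the 13 lie in the window: Gbp2b, 4930590L14Rik, Gm32754 and Gm6214. The other 9 are Itgax, Slc6a5, Clec7a, Cst7, Lamr1-ps1, Ifi44l, Ccl3, Ccl4 and Il1rn. Itgax, Clec7a and Cst7 among them are genes of activated microglia. Slc6a5 had 4498 carrier reads and 71 non-carrier reads.

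Among the 7 coding members with enough reads, most values overlapped between carriers and non-carriers. At 9 months 1 of the 8 members that passed the filter, 4930590L14Rik, had every carrier above every non-carrier, where 0.576% of all 20122 genes tested did so and 0.0149% had every carrier below (0.591% either way). At 11 months 2 of 8, 4930590L14Rik and Pdlim5, had every carrier above, where the shares were 2.66% above and 1.79% below (4.45% either way) of 19290 genes. Since the contrast chose the members, nothing is read from these counts. Of the other tested genes of the window, 0 of 18 at 9 months and 2 of 20 (Gm32754 and Gbp2b) at 11 months were apart in this way. Gm32754 was not among the 18, since it did not pass the filter at 9 months. Its few reads there also placed every carrier above every non-carrier. At 11 months Gm32754 and Gbp2b had no read in WT_HA and passed the filter through their carriers alone. The member 4930590L14Rik also passed through its carriers alone in both cohorts, with at most 2 reads in any non-carrier. Fewer cells of a type and less RNA per cell cannot be told apart in such bulk tissue.

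Pdlim5, the kinase scaffold, was higher in most carriers. WT libraries held 37.6, 43.6, 41.0 and 40.1 CPM and Lsd1het 36.3 and 38.96. PS19 held 57.7, 41.8, 49.6 and 66.6 CPM, and PS19_Lsd1het 48.3, 37.0, 52.9 and 53.3. At 9 months 6 of 8 carriers exceeded every non-carrier, and PS19 replicate 2 and PS19_Lsd1het replicate 2 did not. WT_HA held 35.5, 39.1 and 40.4 CPM, PS19_HA 49.6, 57.0 and 41.3, and PS19_LSD1 46.8, 45.4 and 48.9. At 11 months the groups did not overlap, by a margin of less than 1 CPM at the closest pair, PS19_HA replicate 3 and WT_HA replicate 3.

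In the fitted model the log2 difference of Pdlim5 was 0.41 (SE 0.18) for PS19 against WT and 0.35 (SE 0.23) for PS19_Lsd1het against Lsd1het. At 11 months it was 0.36 (SE 0.13) for PS19_HA and 0.29 (SE 0.13) for PS19_LSD1, both against the same 3 WT_HA libraries. The summed level of 5 astrocyte markers, all detected, was 1274 to 1558 CPM in non-carriers and 1643 to 4832 in carriers at 9 months, and 1122 to 1625 against 1472 to 2532 at 11 months. The sum of 5 microglial markers, all detected, was 171 to 223 CPM against 193 to 439 at 9 months, and 160 to 191 against 175 to 297 at 11 months. In the carriers with the lowest Pdlim5, the astrocyte and microglial sums were 1643 and 213 CPM in PS19 replicate 2, 2984 and 193 in PS19_Lsd1het replicate 2, and 2532 and 297 in PS19_HA replicate 3. In carriers with the highest Pdlim5 the sums were 4832 and 430 CPM in PS19 replicate 4 and 4760 and 439 in PS19 replicate 1. The next carrier, PS19_HA replicate 2, held 2283 and 245 CPM. The part of these cells in the Pdlim5 values was not tested.

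Bmpr1b, the bone morphogenetic protein receptor, was at 30.1 ± 4.26 CPM (SD, n = 4) in WT, 23.4 ± 0.122 (n = 2) in Lsd1het, 34.7 ± 10.5 (n = 4) in PS19 and 33.1 ± 6.69 (n = 4) in PS19_Lsd1het. At 9 months 4 of 8 carriers exceeded every non-carrier, the highest being PS19 replicate 4 at 49.3 CPM. At 11 months it was at 30.4 ± 2.96 (n = 3) in WT_HA, 32.4 ± 3.05 (n = 3) in PS19_HA and 31.2 ± 2.46 (n = 3) in PS19_LSD1. The log2 difference was 0.20 (SE 0.23) for PS19 against WT, 0.50 (SE 0.29) for PS19_Lsd1het against Lsd1het and 0.09 for PS19_HA against WT_HA. Without PS19 replicate 4 the first of these was 0.010, and the second was 0.28 in a fit blocked on replicate number. The astrocyte and microglial sums given for Pdlim5 apply to these libraries too.

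Unc5c, the netrin receptor beyond Pdha2, was lower in several carriers. WT held 54.5, 51.6, 103 and 76.7 CPM and Lsd1het 39.1 and 55.7. PS19 held 30.6, 41.9, 73.0 and 69.1 CPM, and PS19_Lsd1het 33.5, 48.9, 49.8 and 66.4. WT_HA held 88.5, 104 and 87.5 CPM, PS19_HA 77.1, 83.2 and 51.5, and PS19_LSD1 83.5, 91.1 and 75.6. At 11 months 5 of 6 carriers lay below every non-carrier, and at 9 months 2 of 8 did. The log2 difference was -0.42 (SE 0.32) for PS19 against WT, -0.41 (SE 0.17) for PS19_HA against WT_HA and -0.17 for PS19_LSD1 against WT_HA. In a fit blocked on replicate number these were -0.46 (SE 0.17), -0.43 (SE 0.12) and -0.17 (SE 0.12). PS19_Lsd1het against Lsd1het gave 0.07, which became -0.32 in a fit blocked on replicate number. Same-numbered libraries of these 2 groups correlated at only 0.01 to 0.03. The lowest 11-month library, PS19_HA replicate 3, was the one with the low hippocampal neuron sum, and without it the PS19_HA difference was -0.23. The summed neuron markers were 570 to 976 CPM in WT and 419 to 835 in PS19, and 332 to 835 in WT_HA, and their part in the Unc5c values was not tested.

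At 9 months Unc5c and Eif4e also differed by replicate number. In WT the Unc5c mean was 53.1 CPM over replicates 1 and 2 and 90.1 over 3 and 4, in PS19 36.2 and 71.1, and in PS19_Lsd1het 41.2 and 58.1. Eif4e, the cap-binding protein, was at 63.2 and 131.3 CPM in WT, 59.1 and 106.6 in PS19 and 55.1 and 92.6 in PS19_Lsd1het. Within either set, both WT libraries lay above all 4 carriers for Unc5c, while Lsd1het replicate 1, at 39.1 CPM, lay below 2 of the carriers with numbers 1 and 2. The labels do not say what the replicate numbers stand for. The highest value of both genes was in WT replicate 3, with 103 CPM of Unc5c and 162 of Eif4e, the library with the highest mitochondrial share.

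On the Metap1 side 4 members passed the filter on low counts, and their carriers and non-carriers overlapped in both cohorts. Rap1gds1, the GTPase exchange factor, was the most abundant per length at 32.8 RPKM in non-carriers, before Tspan5 at 17.6, Eif4e at 15.8 and Metap1 at 5.91. Rap1gds1 averaged 232 CPM in WT and 229 CPM in PS19, with 245 when PS19 mice lacked one Lsd1 copy and 224 in Lsd1het. At 11 months it averaged 285, 307 and 300 CPM in WT_HA, PS19_HA and PS19_LSD1. Replicate 3 was the highest in each of these groups, at 327.6 CPM or more, against 239 to 287 in the other 11-month libraries. Its 5 thalamus markers summed to 443, 452 and 541 CPM in that order, against 155 to 223 in the others. Its hippocampal neuron sums were 332, 168 and 328 CPM, against 560 to 835. The part of tissue content in these values was not tested. The Rap1gds1 log2 difference was -0.02 for PS19 against WT and 0.11 (SE 0.19) for PS19_HA against WT_HA. In a fit blocked on replicate number the second was 0.09 (SE 0.10). Tspan5, the tetraspanin, averaged 128 CPM in WT and 147 CPM in Lsd1het. The carriers of that cohort averaged 131 CPM (PS19) and 127 CPM (PS19_Lsd1het). The 11-month groups averaged 121, 131 and 122 CPM in the order just used.

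Eif4e gave log2 differences of -0.23 (SE 0.35) for PS19 against WT, 0.21 for PS19_Lsd1het against Lsd1het and -0.10 for PS19_HA against WT_HA. The first turned to 0.11 without WT replicate 3, and the second to -0.28 in a fit blocked on replicate number. Metap1, the methionine aminopeptidase, gave -0.01 for PS19 against WT and -0.22 (SE 0.09) for PS19_HA against WT_HA. Its WT_HA libraries held 45.1, 42.1 and 44.4 CPM, PS19_HA 40.5, 36.8 and 35.9, and PS19_LSD1 44.2, 42.3 and 38.9. At 11 months 4 of 6 Metap1 carriers lay below every non-carrier, and all 3 PS19_HA libraries were among them.

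**Figure D3:**
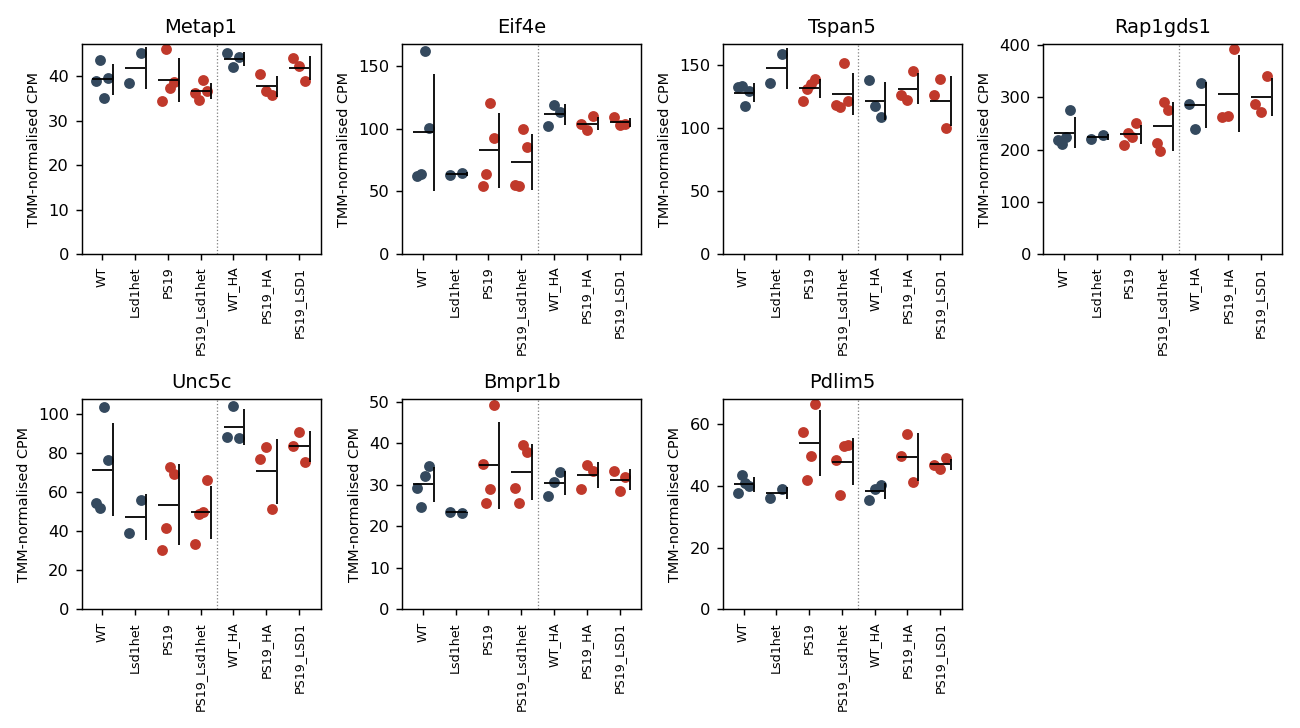
The 7 coding members that passed the filter, in TMM-normalised CPM per library (each vertical axis starts at 0). Dots are libraries (red carriers, dark blue non-carriers), horizontal lines group means, vertical bars 1 SD and the dotted line parts 9 from 11 months. Pdlim5 carriers at 11 months (41.3 to 57.0) lie above WT_HA (35.5 to 40.4), and Eif4e and Unc5c spread widely within the 9-month groups.

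The carrier difference of the coding members as a group was small beside that of 4930590L14Rik. The median log2 difference of the 7 was -0.01 for PS19 against WT and 0.09 for PS19_HA against WT_HA, with -0.02 and 0.00 over all genes tested. The other tested genes of the window had medians of 0.23 (18 genes) and 0.37 (20 genes). These other genes lie on both sides of 4930590L14Rik. Beyond Pdlim5 they include the guanylate-binding protein cluster, interferon-induced GTPases, 1.5 Mb or more from 4930590L14Rik. Gbp5 was at log2 1.95 (SE 0.44) for PS19 against WT and 0.67 (SE 0.36) for PS19_HA against WT_HA, and Gbp3 at 2.20 (SE 0.48) and 0.91 (SE 0.33). Gbp2b had 1449 carrier reads and 20 non-carrier reads, with 0 in WT_HA.

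**Figure D4:**
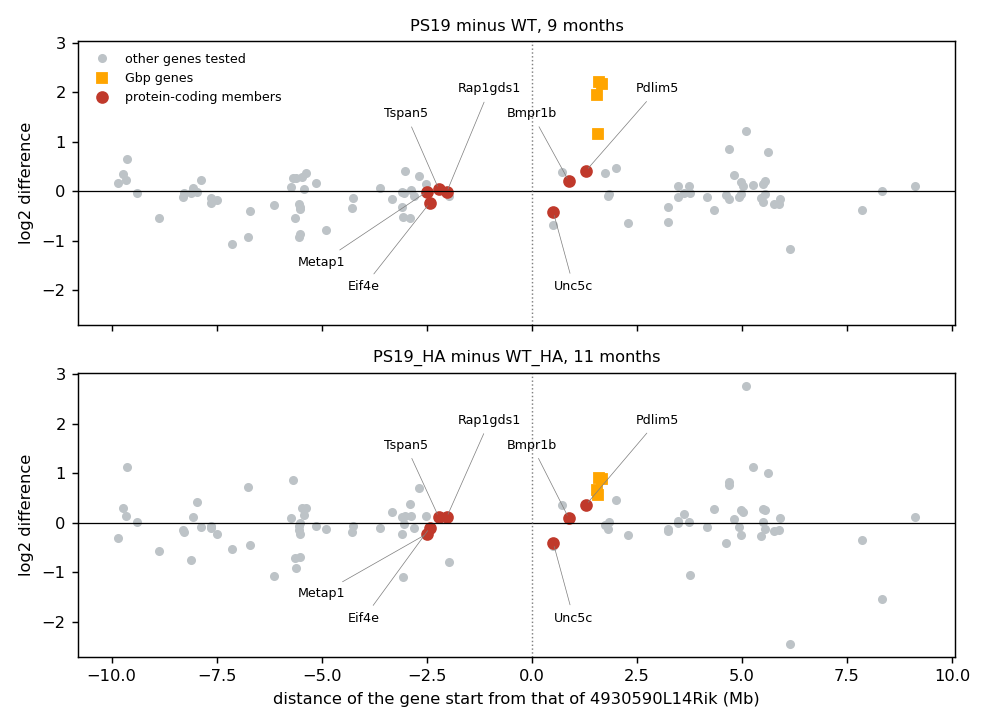
Fitted log2 difference against distance from 4930590L14Rik (Mb, linear axes) for genes within 10 Mb that were tested in both cohorts. PS19 against WT is above and PS19_HA against WT_HA below. Red circles are the 7 coding members, orange squares the Gbp genes without Gbp2b and grey circles other genes. 4930590L14Rik is not plotted. Gm32754, 46.9 kb from it and tested at 11 months only, is not plotted either. Gm32754 had no read in WT_HA, so no fitted value is given. The coding members lie between -0.42 and 0.41 and the Gbp squares above them.

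Next, comparisons that the choice of members did not use were tested with edgeR's quasi-likelihood test, with Benjamini-Hochberg adjustment over all genes. These fits had no block on replicate number. Losing one Lsd1 copy in carriers left the members without a call. For PS19_Lsd1het against PS19, 0 of 8 members passed, where 0 of 20122 genes (0%) did. The log2 difference was -0.44 (SE 0.55, adjusted p = 0.9999) for 4930590L14Rik, and the coding members ran from -0.17 for Pdlim5 to 0.09 for Rap1gds1. Of all genes 252 had an unadjusted p under 0.05, with 0 of the members among them, and DESeq2 called 1 gene, no member. The 4930590L14Rik groups, of 0.842 to 2.06 and 0.406 to 1.90 CPM, overlap, and without PS19_Lsd1het replicate 2 the difference was -0.17.

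For Lsd1het against WT, 0 of 8 members passed, where 0 of 20122 genes (0%) did. The coding members ran from -0.61 for Eif4e to 0.20 for Tspan5, and the lowest adjusted p among the 7 was 0.805. The interaction of transgene and Lsd1 gave 0 of 8 members, again where 0% of 20122 genes passed, with values from -0.25 for Tspan5 to 0.49 for Unc5c. In these comparisons 257 and 168 genes had an unadjusted p under 0.05 with 0 members among them, and DESeq2 called 1 and 2 genes, no member. 4930590L14Rik has 0 or 1 read per library without the transgene at 9 months, so no fitted value is given.

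For PS19_LSD1 against PS19_HA, 0 of 8 members passed, where 0 of 19290 genes (0%) did. The log2 difference was 0.04 (SE 0.37) for 4930590L14Rik, -0.11 for Tspan5 and 0.24 (SE 0.17) for Unc5c, the lowest and highest among the coding members being the last 2. Here 350 genes had an unadjusted p under 0.05, 0 members among them, and DESeq2 called 3 genes, no member. Kdm1a averaged 5159 CPM in PS19_LSD1 and 61.7 in PS19_HA, and reads of the virus cannot be told apart from those of the mouse gene.

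The carrier difference at 11 months was also set against that at 9 months, where age, virus and cohort cannot be told apart. Of the 8 members 0 passed, where 0 of 20931 genes (0%) did. The coding members ran from -0.21 for Metap1 to 0.13 for Eif4e. Of all genes 119 had an unadjusted p under 0.05, with 1 member among them, 4930590L14Rik, whose adjusted p was 1 and whose fitted value rests on non-carriers at 0 to 2 reads. DESeq2 called 0 genes.

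The 4930590L14Rik level itself was 1.73 CPM on average in the 6 carriers at 11 months and 1.22 in the 8 at 9 months, a ratio of 1.42. The difference of 0.514 CPM did not pass (exact two-sided permutation test, p = 0.0703, 3003 permutations). It was 0.590 CPM (exact permutation p = 0.0300) with CPM from total counts in place of TMM and 0.596 (exact permutation p = 0.0480) with counts outside mitochondrial genes. Without PS19 replicate 3, the 1 carrier with a high mitochondrial share, it was 0.634 (exact permutation p = 0.0239), and without PS19_Lsd1het replicate 4 it was 0.611 (exact permutation p = 0.0338).

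Across carriers, the level of 4930590L14Rik was set against that of Prnp, the gene whose promoter drives the transgene; Pearson's r passed its threshold in both cohorts and Spearman's rho in neither. At 9 months Pearson's r was 0.753 (n = 8, exact permutation p = 0.0178, adjusted over the 2 relations 0.0181) and Spearman's rho 0.714 (exact permutation p = 0.0576, adjusted 0.103). At 11 months r was 0.852 (n = 6, exact permutation p = 0.0181, adjusted 0.0181) and rho 0.771 (exact permutation p = 0.103, adjusted 0.103). Without the 2 libraries farthest from the median of Prnp, r was 0.582 (n = 6) and 0.537 (n = 4). The relation rests on those libraries, among them PS19_Lsd1het replicate 2, with the lowest Prnp (1071 CPM) and the lowest 4930590L14Rik (0.406 CPM) of its cohort. Without that library, which had the low hippocampal neuron sum, r was 0.655 (n = 7, exact permutation p = 0.104), and without PS19_HA replicate 3 it was 0.852 (n = 5, exact permutation p = 0.0917). Both genes share each library's normalisation, and at 9 months r was 0.587 (exact permutation p = 0.121) with CPM from total counts. Replicates 1 and 2 and replicates 3 and 4 hold only 4 carriers each at 9 months, too few for a value within each set.

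**Figure D5:**
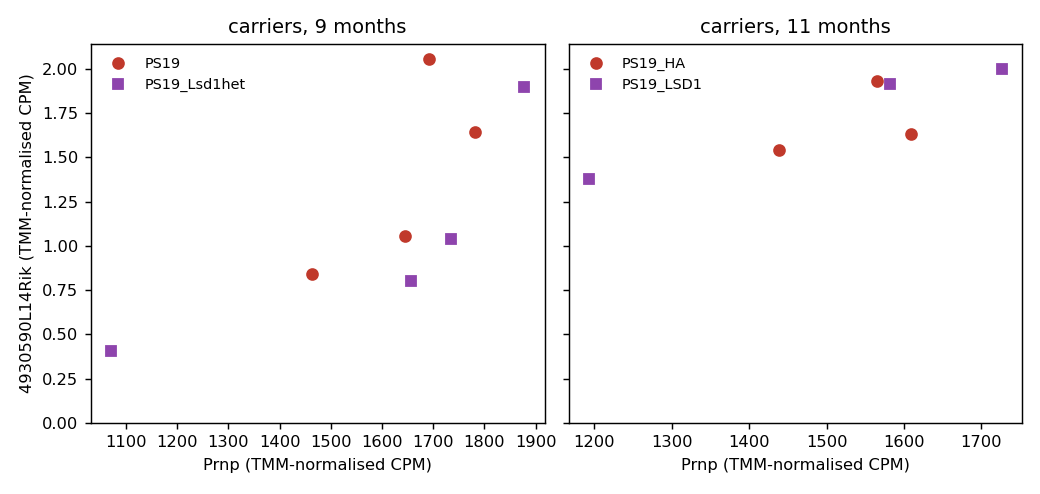
4930590L14Rik against Prnp in the carriers, both in TMM-normalised CPM, 8 libraries at 9 months (left) and 6 at 11 months (right), each point 1 library. The horizontal axes do not start at 0 and differ between the panels. The library lowest in both genes stands alone at the left of the 9-month panel, with 1071 CPM of Prnp and 0.406 of 4930590L14Rik.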

How the data were processed

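The authors deposited raw counts: each library has a file of whole numbers of reads per gene that were not normalized. Per the submitters' processing notes, the tools were FastQC 0.11.7, Trimmomatic 0.36.5, HISAT2 2.1.0, featureCounts 1.6.0.6 and DESeq2 2.11.40.2 on GRCm38. No annotation release, strand setting or rule for reads with several alignments is named in the sources used here, so pseudogenes and overlapping or antisense genes are uncertain. Symbols and positions came from GENCODE M21 (54165 of 54232 identifiers matched). Counts were tested with edgeR 4.0.16 in R 4.3.3 (TMM, robust quasi-likelihood, filterByExpr with minimum count 10 and total 15, calls at an adjusted p under 0.05), with 1 fit for the 14 libraries at 9 months, 1 for the 9 at 11 months and 1 over all 23. DESeq2 1.42.0 was the second tool. CPM is TMM-normalised and RPKM divides it by exon length. The 11-month fit was tested on simulated independent libraries, for PS19_LSD1 against PS19_HA only. The fits at 9 months and over all 23 libraries were not tested in this way. Same-numbered libraries had deviations from group means that correlated as follows: WT with PS19 at 0.48 to 0.81, WT with PS19_Lsd1het at 0.3 to 0.52, PS19 with PS19_Lsd1het at 0.29 to 0.47, WT_HA with PS19_LSD1 at 0.11 to 0.44, WT_HA with PS19_HA at 0.1 to 0.28, and PS19_HA with PS19_LSD1 at 0.06 to 0.23. By a limit of 0.1 the first 4 of these were taken as paired, from the data alone. Lsd1het correlated at 0.03 to 0.06 with WT and at 0.01 to 0.03 with PS19_Lsd1het, and was not taken as paired. The main fits did not use the pairing, which entered only in the alternative fits with a replicate block. The block moved the SE of Eif4e for PS19 against WT from 0.35 to 0.12. For PS19_Lsd1het against PS19, genes with an unadjusted edgeR p under 0.05 went from 252 to 609. No pair of libraries within a group agreed within sampling noise (smallest chi-square per gene 11.6). The genes named are the 10 members, genes of the window that pass the filter, and genes with reads in every carrier and in no non-carrier; others were named after their values were seen. Members and lists were chosen with earlier results of these data known. Alternatives were other normalizations, no filter, a replicate block, a sex covariate, subsets of replicates and leaving out each library.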

Additional observations from a re-analysis of the deposited data

Results flagged for a closer look

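Tspan5 was at 152 CPM in PS19_Lsd1het replicate 3, far from the other 3 libraries of that group, which held 117 to 121 CPM. A single library far from its group was looked for in 23 combinations of gene and group, of which this 1 was found, and chance alone gives about 1 in 20. PS19_Lsd1het replicate 3 was also the library whose Kdm1a, at 56.5 CPM, lay within the PS19 range.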

How the results depend on the processing

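No member was called in any of the 5 tested comparisons in which each alternative was run: DESeq2, RLE size factors, no filter on low counts, a fit of only the groups compared, a sex covariate for the LSD1 virus, replicate subsets or the omission of each library in turn (0 calls). With the replicate block the count was also 0 in all 5. The block moved untested values of PS19_Lsd1het against Lsd1het, from 0.50 to 0.28 for Bmpr1b, from 0.07 to -0.32 for Unc5c and from 0.21 to -0.28 for Eif4e. Same-numbered libraries of these 2 groups correlated at only 0.01 to 0.03. Eif4e in PS19 against WT ran from -0.46 to 0.11 with libraries left out. The count of members with carriers apart at 9 months was 3 within replicates 1 and 2 (4930590L14Rik higher, Unc5c and Tspan5 lower, against shares of 7.05% higher and 7.67% lower over all genes) and 3 within replicates 3 and 4 (4930590L14Rik and Pdlim5 higher, Unc5c lower, against 6.9% and 3.67%), where only 2 WT libraries and 4 carriers enter. Lsd1het was left out of these counts, and with its replicate 1 Unc5c would not be apart. Leaving out each library gave 1 at 9 months, where 0.591% of all genes were apart with all 14 libraries. At 11 months it gave 2 to 3, against shares over all genes of 2.98% to 6.8% higher and 2.22% to 5.66% lower. Without the 3 libraries with high mitochondrial shares, an alternative chosen after seeing the data, the counts were 1 and 3 (Metap1 lower). The shares over all genes were then 1.29% higher and 0.134% lower at 9 months, and 4.51% and 3.71% at 11 months. Nothing is read from these counts. The 11 against 9 month difference of 4930590L14Rik passed its threshold at 0.590 and 0.596 CPM under the other normalizations and at 0.634 with low mitochondrial shares, and ran from 0.398 to 0.634 when libraries were left out. For 4930590L14Rik with Prnp, r was 0.587 with total counts at 9 months and 0.844 without PS19 replicate 3, and ran from 0.655 to 0.844 at 9 months and 0.700 to 0.945 at 11 months. It lost its threshold without PS19 replicate 2, PS19_Lsd1het replicate 2 or 4, PS19_HA replicate 3 or any PS19_LSD1 library. Some directions turned. Unc5c in PS19_Lsd1het against PS19 was 0.19 in replicates 1 and 2 and ran from -0.28 to 0.069 with libraries left out. In PS19_LSD1 against PS19_HA, 4930590L14Rik ran from -0.046 to 0.19 and Pdlim5 from -0.18 to 0.046. The cause was not tested. Low counts limit the genes beside 4930590L14Rik, and 2 of the 10 members had too few reads to compare.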
